A study of Homo sapiens with 6 samples.

Results

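The 10 genes described here were *HSF1*, which encodes the transcription factor that switches on the heat shock response, and 9 heat shock chaperone genes, *HSPA1A*, *HSPA1B*, *HSPA8*, *HSPH1*, *DNAJB1*, *HSP90AA1*, *HSPB1*, *HSPD1* and *HSPE1*. They were picked by name, as the core genes of the heat shock response, out of 62710 gene rows. All 10 were among the 16347 genes whose mean value over the libraries reached 10 and which were tested. The data are RNA-seq libraries of H526, a human small cell lung cancer (SCLC) line of the POU2F3, or tuft-like, subtype. Parental H526 cells, with no selection in drug, gave 3 libraries, numbered 1 to 3. Onvansertib-resistant H526 cells gave the other 3, numbered 7 to 9, and came from the same line after more than a year in onvansertib, an inhibitor of Polo-like kinase 1 (PLK1), at concentrations raised from 10 to 75 nM. Both groups were kept in RPMI-1640 with serum. RNA was taken at 3 separate times, so the p-values measure the spread between samples of 1 cell line and of 1 resistant derivative of it, and the resistant state cannot be told apart from other changes that arose during that year of culture. Whether drug was still in the medium when the resistant cells were harvested is not given in the sources used here.

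In resistant cells, 5 of the 10 genes fell and 1 rose, while 4 did not pass the test. Over all genes tested, 19.8% were called lower and 17.8% higher, 37.7% in all. The mitochondrial chaperonin pair *HSPD1* and *HSPE1*, the inducible HSP70 genes *HSPA1A* and *HSPA1B*, and the HSP40 gene *DNAJB1* fell to between 62.1% and 80.3% of the parental mean. *HSP90AA1*, the inducible cytosolic HSP90, rose to 127%, a call that was lost without the intensity trend of the test (adjusted p = 0.06 by limma) and after the median of neighbouring genes was subtracted (0.02 on the log2 scale, adjusted p = 0.888). *HSF1*, *HSPA8*, *HSPH1* and *HSPB1* did not pass.

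Heat shock chaperones bind unfolded proteins and help them to fold or to be degraded. HSF1 is held inactive by chaperones in unstressed cells. When unfolded proteins engage those chaperones, HSF1 forms trimers that bind heat shock elements, runs of inverted GAA units upstream of chaperone genes, and raises their transcription. In the cytosol HSP70 proteins work in a cycle with HSP40 partners, which load substrate, and HSP110 proteins, which exchange nucleotide, and pass clients on to HSP90. HSP60 and HSP10 form the folding chamber of mitochondria. Many tumour cells depend on these proteins, and PLK1 has been described as a kinase of HSF1.

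Heat shock elements are the sequence that ties the chaperone genes to HSF1, so the letters upstream of the members are shown here. A unit is GAA or its reverse complement TTC, separated from the next by any pair of bases. The search used 2 inverted units, GAANNTTC or TTCNNGAA, and 3 units, GAANNTTCNNGAA or TTCNNGAANNTTC. A run of 3 units always holds runs of 2 units, and reading both strands gives the same set of matches. Each window held the 250 bases before and 50 bases from the start of the canonical transcript (Gencode v44, GRCh38). Among 20046 windows of protein-coding genes of this length, 2212 (11%) held 2 units and 73 (0.364%) held 3 units. Of the 10 members, 8 held 2 units, and 4 of these, *HSPA8*, *HSPH1*, *HSP90AA1* and *HSPD1*, held 3 units. The 6 windows printed are those of the gene that rose (*HSP90AA1*), of 4 genes that fell and of *HSPA8*, the most highly expressed member per length. They run 5′ to 3′ on the strand of the gene, with the matched letters in capitals.
HSPA1A (chr6:31815293-31815592, plus strand): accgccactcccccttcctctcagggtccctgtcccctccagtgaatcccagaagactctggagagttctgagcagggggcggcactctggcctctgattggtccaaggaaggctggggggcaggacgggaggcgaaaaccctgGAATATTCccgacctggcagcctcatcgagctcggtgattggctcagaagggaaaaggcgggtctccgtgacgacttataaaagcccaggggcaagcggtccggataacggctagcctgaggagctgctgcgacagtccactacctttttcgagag
DNAJB1 (chr19:14518348-14518647, minus strand): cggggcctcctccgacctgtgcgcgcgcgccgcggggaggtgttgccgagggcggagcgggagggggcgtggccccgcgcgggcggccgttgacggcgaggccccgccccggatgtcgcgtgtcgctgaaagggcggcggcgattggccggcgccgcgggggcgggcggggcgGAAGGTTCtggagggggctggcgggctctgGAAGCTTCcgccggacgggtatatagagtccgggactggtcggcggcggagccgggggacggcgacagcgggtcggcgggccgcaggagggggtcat
HSPA8 (chr11:123062087-123062386, minus strand): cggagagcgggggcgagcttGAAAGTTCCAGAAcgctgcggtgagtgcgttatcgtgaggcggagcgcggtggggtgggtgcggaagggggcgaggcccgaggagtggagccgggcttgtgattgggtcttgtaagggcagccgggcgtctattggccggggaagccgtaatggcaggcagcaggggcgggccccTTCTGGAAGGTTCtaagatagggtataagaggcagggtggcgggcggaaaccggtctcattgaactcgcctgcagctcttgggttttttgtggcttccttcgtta
HSP90AA1 (chr14:102086995-102087294, minus strand): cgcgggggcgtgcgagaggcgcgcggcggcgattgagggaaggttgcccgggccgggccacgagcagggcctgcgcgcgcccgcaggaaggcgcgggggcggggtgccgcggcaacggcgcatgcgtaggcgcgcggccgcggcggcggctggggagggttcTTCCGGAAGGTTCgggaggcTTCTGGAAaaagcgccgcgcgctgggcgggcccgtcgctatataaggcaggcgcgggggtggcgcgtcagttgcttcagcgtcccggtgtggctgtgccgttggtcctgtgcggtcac
HSPD1 (chr2:197499791-197500090, minus strand): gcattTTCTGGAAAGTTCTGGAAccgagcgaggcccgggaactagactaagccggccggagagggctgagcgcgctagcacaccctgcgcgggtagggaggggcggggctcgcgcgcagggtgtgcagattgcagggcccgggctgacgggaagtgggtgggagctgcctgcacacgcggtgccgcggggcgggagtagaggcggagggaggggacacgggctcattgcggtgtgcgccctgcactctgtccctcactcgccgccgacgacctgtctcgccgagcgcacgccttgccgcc
HSPE1 (chr2:197500129-197500428, plus strand): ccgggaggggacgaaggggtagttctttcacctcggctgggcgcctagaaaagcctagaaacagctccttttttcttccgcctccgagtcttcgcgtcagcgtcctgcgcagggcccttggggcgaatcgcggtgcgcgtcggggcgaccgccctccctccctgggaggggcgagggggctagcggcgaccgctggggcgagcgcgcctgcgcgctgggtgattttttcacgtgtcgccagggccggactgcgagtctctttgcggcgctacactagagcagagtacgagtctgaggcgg

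**Figure D1:**
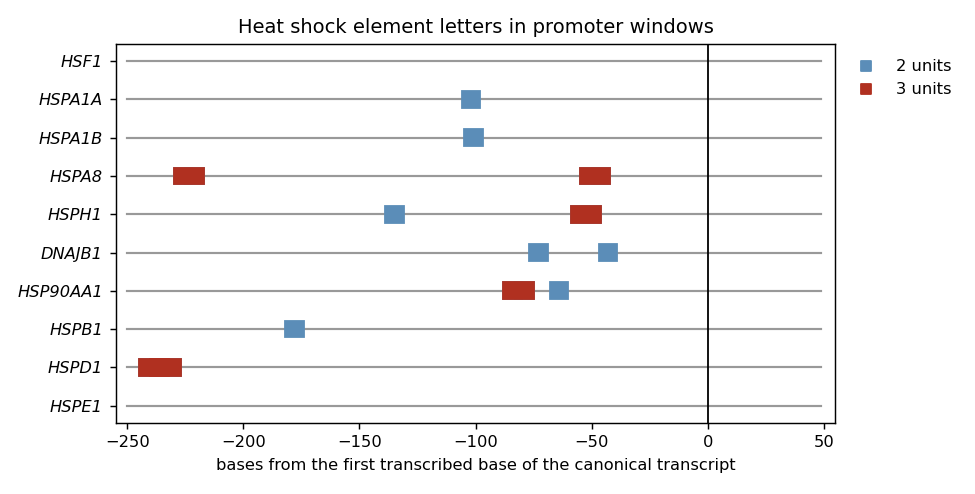
Position of heat shock element letters in the promoter windows of the 10 genes, in bases from the first transcribed base (0, vertical line), with runs of 2 units in blue and runs of 3 units in red drawn over them. *HSPA8*, *HSPH1*, *HSP90AA1* and *HSPD1* hold 3 units, and the windows of *HSF1* and *HSPE1* hold no match.

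In the *HSP90AA1* window the 3 units lay 88 to 76 bases before the start, with a further 2 units at 68 to 61 bases. *HSPA8* held 3 units at 2 places, 230 to 218 and 55 to 43 bases before its start. In *HSPD1* the capitals are overlapping runs of 3 units from 245 to 228 bases before the start. *HSPD1* and *HSPE1* are transcribed away from each other with 538 bases between their starts, and the *HSPD1* motif lay 294 bases from the *HSPE1* start, outside the *HSPE1* window, which held no match. *HSPA1A* held 2 units at 106 to 99 bases and *HSPA1B* at 105 to 98 bases before the start, in windows with nearly the same letters around them. *DNAJB1* held 2 units at 77 to 70 and at 47 to 40 bases, *HSPB1* at 182 to 175 bases, and *HSPH1* 3 units at 59 to 47 and 2 units at 139 to 132 bases before the start. Set beside the expression data, the 4 genes with 3 units included the member that rose (*HSP90AA1*), 1 that fell (*HSPD1*) and 2 that did not pass the test (*HSPA8* and *HSPH1*). A match of letters is no evidence of binding, and binding was not measured.

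Values are read counts normalized by the authors with DESeq2, so they compare libraries for 1 gene but not genes of different length. Differences are log2 fold changes of the value plus 1, resistant over parental, positive where resistant cells were higher, with the standard error (SE) and the Benjamini-Hochberg adjusted p of limma over the 16347 genes tested, called at 0.05. The smallest p that an exact two-sided permutation test of 1 gene can give in this design is 0.10. Depth was not measured but estimated, by dividing the summed value of each library by the value of 1 read. That value was read from the commonest step of the low values, which varied from gene to gene, so the estimates are rough. They were 25659170 to 28507452 reads in parental and 22335973 to 23299497 reads in resistant libraries. By the same estimate 3 reads, taken as the limit of detection for counting error only, were worth between 2.67 and 3.23.

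The 2 groups differed widely beyond the chaperones. *POU2F3*, the defining factor of the tuft-like subtype, was at 25809 ± 1178 (SD, n = 3) in parental and 27273 ± 536 (SD, n = 3) in resistant cells. The 8 tuft-like markers summed to between 72575 and 73642 in parental and between 67324 and 69224 in resistant libraries, 5 of them higher, among them *TRPM5* (log2 fold change 1.77) and *CHAT* (1.72), and 2 lower, *AVIL* (-0.80) and *ASCL2* (-0.47). All 3 neuroendocrine markers tested, *INSM1* (-2.28), *CHGA* (-4.22) and *SYP* (-2.15), fell, *NEUROD1* was near 0, and the sum of the marker list went from between 7029 and 8468 to between 1454 and 1689. Markers of other cell types summed to between 370.0 and 516 in parental and between 818 and 1034 in resistant libraries. Of these 6 genes *PTPRC*, *CD3E* and *PECAM1* were at or near 0, and the 3 that were tested, *COL1A1* (2.20), *COL1A2* (1.15) and *VWF* (0.77), all rose. Of 8 immediate early genes, which respond within minutes to handling and stress, *IER2* (-0.54) and *DUSP1* (-1.53) fell and none rose, and their sum went from between 6919 and 7927 to between 5754 and 6229. The part of these differences in the chaperone values was not tested, and fewer cells of one state and less RNA per cell cannot be told apart in bulk RNA.

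**Figure D2:**
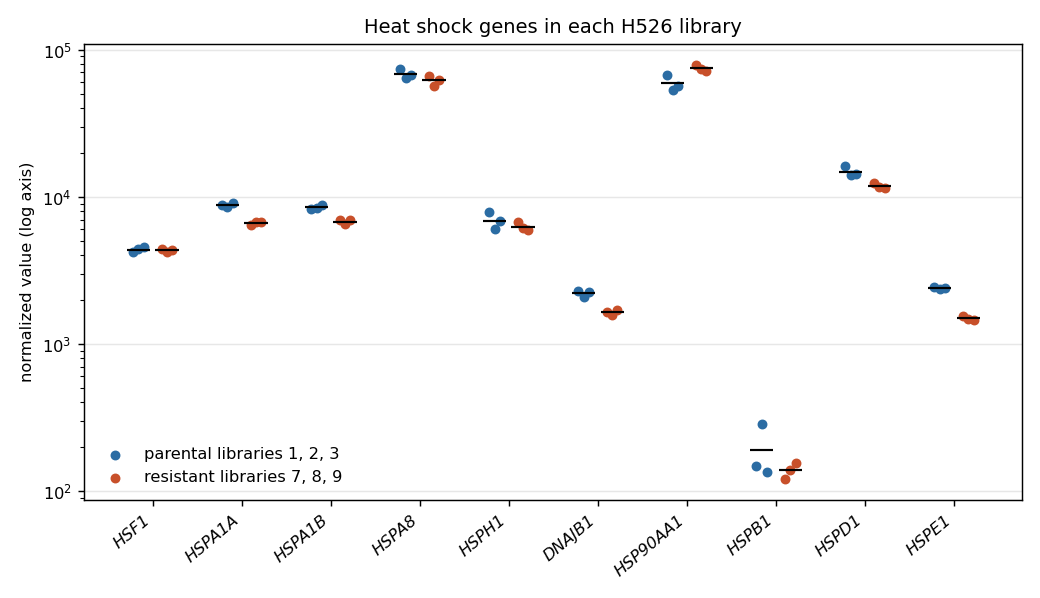
DESeq2-normalized value (log axis) of the 10 genes in each library, parental in blue and resistant in orange, with the group mean as a black line. *HSPA1A*, *HSPA1B*, *DNAJB1*, *HSPD1* and *HSPE1* are lower in all 3 resistant libraries, *HSP90AA1* is higher in all 3, and the groups overlap for the other 4 genes.

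The mRNA of the regulator itself was level between the groups. *HSF1* (ENSG00000185122, chromosome 8, 144291591 to 144314720, plus strand) had values of 4183, 4385 and 4546 in parental libraries 1, 2 and 3 and of 4413, 4235 and 4367 in resistant libraries 7, 8 and 9. All 3 resistant values lay inside the parental range. The means were 4371 ± 182 and 4338 ± 92.5 (SD, n = 3 each), a log2 fold change of -0.01 with a 95% interval from -0.14 to 0.12 (adjusted p = 0.909 by limma). A change of *HSF1* mRNA larger than that interval was not seen, and the activity of the HSF1 protein was not measured. The sign of so small a value turned under other scalings, to 0.05 with upper-quartile scaling and 0.03 with quantile normalization.

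The inducible HSP70 genes both fell. *HSPA1A* and *HSPA1B* encode nearly identical HSP70 proteins that are low in most unstressed tissues and surge on heat shock, and they lie 12195 bases apart in the MHC region of chromosome 6. *HSPA1A* (ENSG00000204389, 31815543 to 31817946, plus strand) had values of 8809, 8547 and 9140.1 in the parental and 6441, 6728 and 6713 in the resistant libraries. The groups did not overlap, and the lowest parental library stood above the highest resistant one. *HSPA1A* fell by 0.41 on the log2 scale (SE 0.06, adjusted p = 0.000336 by limma), to 75.0% of the parental mean. *HSPA1B* (ENSG00000204388, 31827738 to 31830254, plus strand) had values of 8196, 8329 and 8858 in the parental and 6930, 6493 and 6904 in the resistant libraries, also without overlap. It fell by 0.32 (SE 0.06, adjusted p = 0.00216 by limma), to 80.1%. The pair is not resolved well by reads. Of the 100-base stretches of *HSPA1A* transcripts, 69.5% occur letter for letter in *HSPA1B*, so that the split of reads between them is uncertain. Summed over the pair, the value fell by 0.37 (adjusted p = 0.000569 by limma).

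The constitutive HSP70 and the HSP110 gene did not pass the test. *HSPA8* (ENSG00000109971, chromosome 11, 123057489 to 123063230, minus strand) encodes HSC70, the housekeeping HSP70 of the cytosol. Its values were 73478, 64242 and 67388 in the parental and 66591, 56984 and 62676 in the resistant libraries. The highest resistant library stood above the lowest parental one, and the difference was -0.14 (95% interval -0.31 to 0.03, adjusted p = 0.176 by limma). *HSPH1* (ENSG00000120694, chromosome 13, 31134973 to 31162388, minus strand) encodes HSP105, the stress-inducible HSP110 nucleotide exchange factor. Its values were 7876, 6011 and 6799 in the parental and 6706, 6090 and 5912 in the resistant libraries. Of the resistant values 2 lay inside the parental range, and parental library 1 was the highest. The difference was -0.14 (95% interval -0.35 to 0.07, adjusted p = 0.282 by limma), and without that library it was -0.04.

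The inducible HSP40 gene fell too. *DNAJB1* (ENSG00000132002, chromosome 19, 14514769 to 14560391, minus strand) encodes the HSP40 that activates HSP70 and feeds back on HSF1. It had values of 2281, 2096 and 2268 in the parental and 1652, 1576 and 1699 in the resistant libraries. Every resistant library was below every parental one. It fell by 0.43 (SE 0.07, adjusted p = 0.000955 by limma), to 74.2% of the parental mean.

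*HSP90AA1* moved the other way. This gene (ENSG00000080824, chromosome 14, 102080742 to 102139699, minus strand) encodes the inducible HSP90-alpha. Its values were 67111, 53177 and 56735 in the parental and 79058, 73820.0 and 71823 in the resistant libraries. All resistant libraries were above all parental ones, although parental library 1 stood closer to them than to parental library 2. The log2 fold change was 0.35 (SE 0.09, adjusted p = 0.00979 by limma), and 0.45 without parental library 1.

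The small heat shock protein gene was low and uneven. *HSPB1* (ENSG00000106211, chromosome 7, 76302673 to 76304295, plus strand) encodes HSP27, which holds unfolded proteins without the use of ATP. Its values were 149, 284 and 135 in the parental and 120.2, 139 and 155 in the resistant libraries. Parental library 2 stood apart from the other 5 libraries, which lay between 120.2 and 155. The difference of -0.38 had a 95% interval from -0.96 to 0.21 (adjusted p = 0.287 by limma), and without parental library 2 it was -0.05.

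The mitochondrial chaperonin genes fell, and *HSPE1* fell further than *HSPD1*. *HSPD1* (ENSG00000144381, chromosome 2, 197486584 to 197516737, minus strand) encodes HSP60, the barrel of the chaperonin. Its values were 16089, 13976 and 14333 in the parental and 12479, 11702 and 11462 in the resistant libraries, without overlap. It fell by 0.31 (SE 0.07, adjusted p = 0.00509 by limma), to 80.3%. *HSPE1* (ENSG00000115541, chromosome 2, 197500140 to 197503449, plus strand) encodes HSP10, the lid. Its values were 2449, 2378 and 2386 in the parental and 1539, 1484 and 1459 in the resistant libraries. Its spread within each group was narrow beside the gap between them. *HSPE1* fell by 0.69 (SE 0.07, adjusted p = 3.26e-05 by limma), to 62.1%, the lowest percentage among the 10 genes. *HSPE1* overlaps the read-through gene *HSPE1-MOB4*, in which 4.7% of its 100-base stretches recur and which was at 52.7 ± 22.5 in parental and 40.9 ± 20.2 (SD, n = 3 each) in resistant cells. Adding it and the processed pseudogenes of *HSPE1* to the gene left a fall of 0.68.

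**Figure D3:**
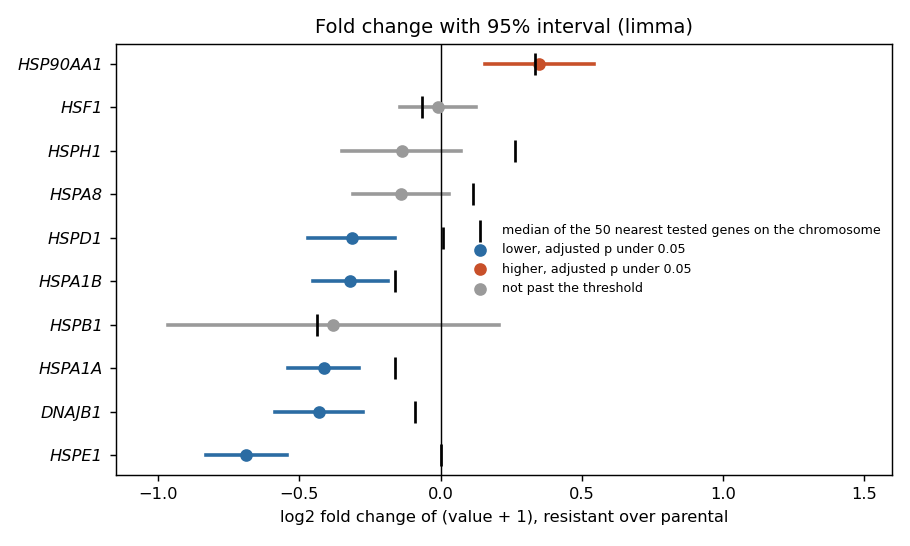
Log2 fold change (resistant over parental) of the 10 genes with the 95% interval of limma, blue for lower, orange for higher and grey for not past the threshold, with a black tick at the median of the 50 nearest tested genes on the same chromosome. The tick of *HSP90AA1* (0.34) lies at its own value (0.35), and that of *HSPE1* lies at 0.

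Counted together, 5 of the 10 members were lower, against 19.8% of all genes tested, and 1 of 10 was higher, against 17.8%. The 5 may not be independent, since reads do not resolve *HSPA1A* and *HSPA1B* well and *HSPD1* and *HSPE1* lie side by side. The groups did not overlap for 6 of the 10 genes, against 49.9% of all genes tested, a share near the background. The median log2 fold change of the members was -0.32, against 0.00 over all genes tested, whose 10th and 90th percentiles were -0.62 and 0.83. Of the 10 members, *HSPE1* alone lay beyond those percentiles.

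Values per kilobase of canonical transcript allow only a rough comparison of genes, since the annotated length and not that of the transcripts expressed was used. On that scale *HSPA8* was the highest in both groups, at 30198 ± 2074 in parental and 27422 ± 2134 (SD, n = 3 each) in resistant cells. *HSP90AA1* came next, at 18279.9 ± 2243 and 23203 ± 1158 per kilobase. Their distance narrowed but the libraries of these 2 genes did not overlap in either group. *HSPD1* followed at 6592 ± 504 and 5292 ± 237 per kilobase. In parental cells the order went on with *HSPE1* (4317 ± 70.2), *HSPA1A* (3680.1 ± 124) and *HSPA1B* (3362 ± 139), whose libraries did not overlap. The order of *HSPA1A* and *HSPA1B* rests on the uncertain split of reads between them. In resistant cells *HSPA1A* (2761 ± 67.3), *HSPA1B* (2692 ± 97.4) and *HSPE1* (2682 ± 73.5) overlapped and had no order beyond their spread. *HSF1*, *HSPH1*, *DNAJB1* and *HSPB1* were the lowest in both groups, in that order, from 2048 ± 85.2 per kilobase for *HSF1* to 244 ± 106 for *HSPB1* in parental cells, with no overlap between neighbours.

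The 10 genes together took 0.658% to 0.751% of the summed value of a parental library and 0.715% to 0.763% of a resistant one, ranges that overlap. Within that total the share of *HSPA8* and *HSP90AA1* was 71.8% to 73.8% in the parental and 77.3% to 78.3% in the resistant libraries.

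Ratios of partner genes within a library do not depend on how libraries were scaled, and 4 were computed. The log2 ratio of *HSP90AA1* to its constitutive paralogue *HSP90AB1* was 0.14, -0.05 and 0.05 in the parental and 0.50, 0.48 and 0.43 in the resistant libraries. The groups did not overlap, and the difference of 0.43 is 1.35-fold (exact two-sided permutation p = 0.10, the smallest possible). *HSP90AB1* itself was at 56935 ± 3464 and 53894 ± 1682 (SD, n = 3 each), a difference of -0.08 (limma adjusted p = 0.366). The log2 ratio of *HSPD1* to *HSPE1*, whose proteins work as 1 machine, was 2.72, 2.56 and 2.59 in the parental and 3.02, 2.98 and 2.97 in the resistant libraries. Again the groups did not overlap, with a difference of 0.37 (exact permutation p = 0.10). The ratio of *HSPA1A* plus *HSPA1B* to *HSPA8* differed by -0.23 and that of *HSPH1* to *HSPA4*, the constitutive HSP110, by -0.13, each with overlap between the groups (exact permutation p = 0.2 for both). Over the 4 ratios no adjusted p could fall under 0.10.

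Genes near *HSP90AA1* moved with it. Over the 555 genes tested on chromosome 14 the median difference was 0.38 on the log2 scale, and of the 50 tested genes nearest to *HSP90AA1*, over 7.48 Mb, 24 were called higher and 1 lower, with a median of 0.34. Of these 50 neighbours, 24 had a higher fold change than *HSP90AA1*. With the median of its neighbours subtracted in each library, *HSP90AA1* differed by 0.02 between the groups (adjusted p = 0.888 by limma). *HSPB1*, which did not pass the test, lies on chromosome 7 among 50 neighbours of which 24 were lower and 3 higher, with a median of -0.44, and its centred difference was 0.01. Of the neighbours of *HSPE1*, 7 were higher and 7 lower, with a median of 0.00, and 49 of the 50 stood above *HSPE1*. The centred value of *HSPE1* was -0.64 (adjusted p = 0.000101 by limma).

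**Figure D4:**
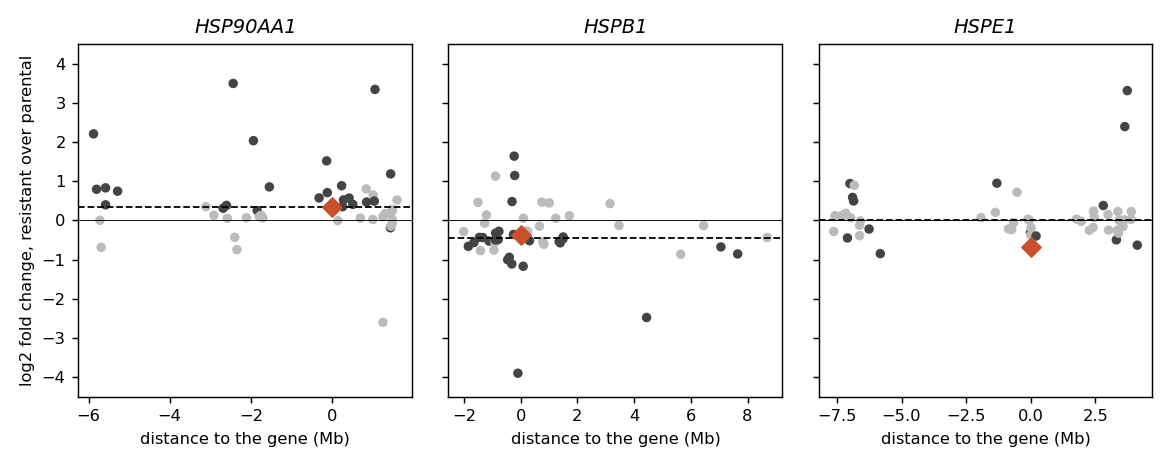
Log2 fold change (resistant over parental) of the 50 tested genes nearest to *HSP90AA1*, *HSPB1* and *HSPE1* against their distance in megabases, dark where the adjusted p was under 0.05, with the gene itself as an orange diamond and the median of its neighbours as a dashed line. *HSP90AA1* and *HSPB1* lie near their lines at 0.34 and -0.44, and *HSPE1* lies below its line at 0.

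The other members that fell remained lower after the same subtraction, with *HSPD1* at -0.30 (adjusted p = 0.00604 by limma), *DNAJB1* at -0.35 (adjusted p = 0.00911), *HSPA1A* at -0.27 (adjusted p = 0.00819) and *HSPA1B* at -0.17 (adjusted p = 0.0451). The 50 genes around *HSPA1A* and *HSPA1B* had a median of -0.16. *HSPH1* lies on chromosome 13, where its 50 neighbours had a median of 0.26, with 18 higher and 3 lower. Centred on them, *HSPH1* passed the threshold at -0.34 (adjusted p = 0.0109 by limma). Neighbours of *HSPA8* had a median of 0.11, and centred on them *HSPA8* was at -0.20 (adjusted p = 0.0895). The neighbours of *HSPA1A* and *HSPA1B*, and of *HSPD1* and *HSPE1*, include the other gene of the pair. Gene dosage was not measured in these samples.

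The genes with the closest pattern over the 6 libraries were found by the root-mean-square (RMS) difference of mean-centred log2 values, among 16346 genes. For *HSF1* they were *RPS29* (RMS difference 0.015), *SNRPD1* (0.0206) and *CDK5RAP2* (0.0246). For *HSPD1* they were *KPNA4* (0.0192), *TNPO3* (0.0199) and *DCTN1* (0.0233), and for *HSPE1* *CDC25B* (0.0207), *ZBTB39* (0.0309) and *TBCB* (0.0316). None of these is a chaperone gene on the lists used here. *HSPD1* ranked 1733rd in likeness to *HSPE1*, at an RMS difference of 0.193, and *DNAJB1* ranked 813th, at 0.139. With 3 libraries per group this measure largely follows the fold changes. Those were -0.687 for *HSPE1*, -0.431 for *DNAJB1* and -0.315 for *HSPD1*. The ranks and the nearest genes are therefore no separate evidence of a shared pattern.

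The wider network of 132 further chaperones, cochaperones and regulators of HSF1 was taken from 9 lists. Of these, 117 were tested, 15 were higher and 30 lower, a total of 38.5% called against 37.7% of all genes. The share lower was 25.6% and the share higher 12.8%, against 19.8% and 17.8%, and the median log2 fold change was -0.09. That balance depended on the scaling. With upper-quartile scaling 20 of these genes were higher and 24 lower, against 3457 and 2738 of all genes. With quantile normalization 20 were higher and 23 lower, against 3006 and 3091 of all genes. Centred on their neighbours, 9 of the 15 genes that were higher and 16 of the 30 that were lower passed in the same direction.

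**Figure D5:**
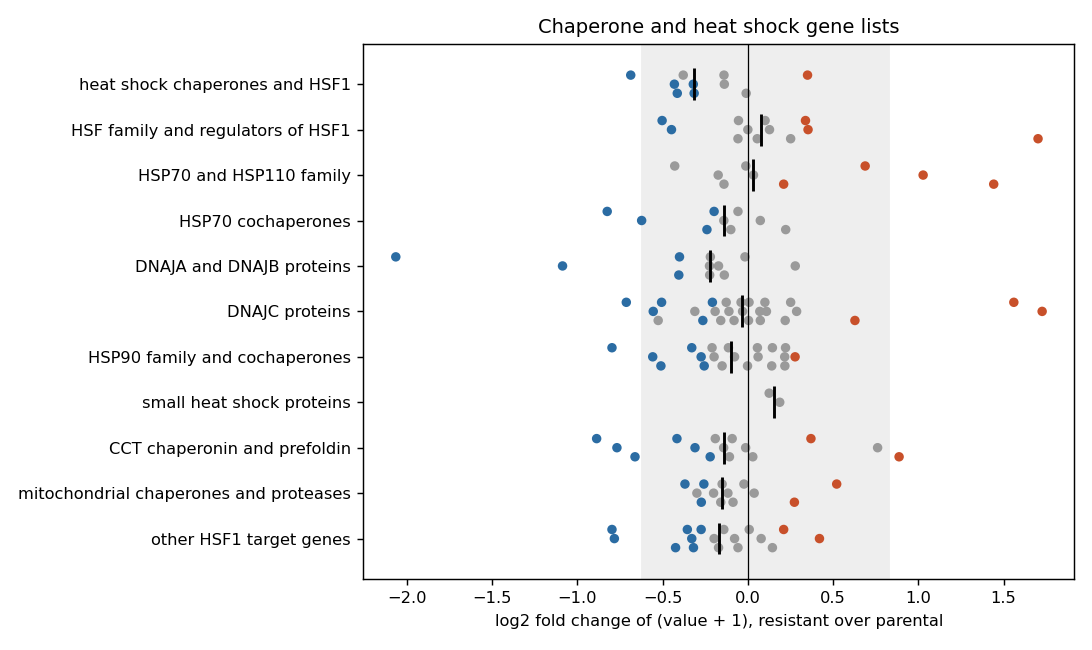
Log2 fold change (resistant over parental) of each tested gene, by list, blue for lower and orange for higher at an adjusted p under 0.05 and grey for the rest, with the median of the list as a black line. The shaded band runs from the 10th to the 90th percentile of all genes tested, -0.62 to 0.83, and the median of the 10 heat shock genes is -0.32.

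Among 12 tested members of the HSF family and regulators of HSF1, 3 rose and 2 fell. The share called in either direction, 41.7%, was near the 37.7% of all genes tested, of which 17.8% were higher and 19.8% lower. *HSF2*, the paralogue that forms mixed trimers with HSF1, was at 1380.3 ± 43.8 in parental and 1381 ± 60.7 (SD, n = 3 each) in resistant cells. *PLK1*, the target of the drug, was at 5311 ± 444 and 5509 ± 276 (SD, n = 3 each), a difference of 0.05 (limma adjusted p = 0.598). *HSBP1*, which encodes a small protein that binds HSF1 trimers, fell by 0.45 and its relative *HSBP1L1* by 0.50, the latter at -0.38 once centred (adjusted p = 0.0581 by limma). The acetyltransferase genes *EP300* and *CREBBP* rose by 0.34 and 0.35. *HSF2BP*, which encodes a partner of HSF2 with a role in meiotic recombination, rose by 1.70, from 99.4 ± 21.5 to 322 ± 30.7 (SD, n = 3 each). It lies on chromosome 21, where the median of all 199 genes tested was 0.99, and centred on its neighbours it was at 0.47 (adjusted p = 0.0921 by limma).

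In the HSP70 and HSP110 family beyond the members, 4 of 9 tested genes rose (44.4%, against 17.8% of all genes tested) and none fell. Those that rose were *HSPA13* (0.69), *HSPA12B* (1.44), *HSPA2* (1.03), known for its role in sperm, and *HSPA4L* (0.21), an HSP110. *HSPA2* lies on chromosome 14 and *HSPA13* on chromosome 21, and centred on their neighbours *HSPA2* was at 0.59 (adjusted p = 0.139 by limma) and *HSPA13* at 0.36 (adjusted p = 0.00844). *HSPA5*, the HSP70 of the endoplasmic reticulum, was at 14353 ± 950 in parental and 14704 ± 1367 (SD, n = 3 each) in resistant cells, and *HSPA4* at 5654 ± 558 and 5595 ± 316. *HSPA6*, an HSP70 gene that is nearly silent without heat, was at 2.25 in parental and 6.65 in resistant cells on average, under the filter, and was not tested. *HSPA1L*, which lies next to *HSPA1A* on the other strand without overlap in Gencode v44, was at 81.8 ± 11.2 and 74.0 ± 8.22 (SD, n = 3 each) and did not pass (adjusted p = 0.634).

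Of 9 cochaperones of HSP70, 4 were lower (44.4%, against 19.8% of all genes tested) and none was higher. *BAG1*, a nucleotide exchange factor that links HSP70 to the proteasome, fell by 0.82, from 1946 ± 132 to 1097 ± 33.5 (SD, n = 3 each, adjusted p = 3.02e-05 by limma). *STUB1*, the ubiquitin ligase CHIP that marks HSP70 clients, fell by 0.62. *HSPBP1* and *BAG6* fell by 0.24 and 0.20, and both calls were lost after centring, where *HSPBP1* was at 0.12 (adjusted p = 0.295 by limma) and *BAG6* at -0.11 (adjusted p = 0.148). *BAG3*, a strongly heat-inducible target of HSF1, was at 363 ± 24.7 and 349 ± 10.6 (SD, n = 3 each), a difference of -0.06 on the log2 scale (limma adjusted p = 0.718).

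Of 11 tested DNAJA and DNAJB genes, 4 fell (36.4%, against 19.8% of all genes tested) and none rose. *DNAJA4* fell by 2.06, from 63.7 ± 15.2 to 14.3 ± 1.69 (SD, n = 3 each), while its 50 neighbours on chromosome 15 had a median of 0.42. *DNAJB9*, an HSP40 of the endoplasmic reticulum, fell by 1.09, and *DNAJB6* and *DNAJB14* by 0.41 and 0.40. Centred, *DNAJB6* on chromosome 7 was at -0.11 and did not pass (adjusted p = 0.299 by limma). The DNAJC proteins were mixed, with 3 of 26 tested genes higher and 5 lower. That is 11.5% higher and 19.2% lower, against 17.8% and 19.8% of all genes tested. *DNAJC28* (1.73), *DNAJC22* (1.56) and *DNAJC13* (0.63) rose, and *DNAJC14* (-0.71), *DNAJC1* (-0.55), *DNAJC2* (-0.51), *DNAJC21* (-0.26) and *DNAJC5* (-0.21) fell. Of these *DNAJC28* and *DNAJC22* were low, with parental means of 13.4 and 33.0. Once centred, *DNAJC13*, *DNAJC22* and *DNAJC1* passed and the other calls were lost, with *DNAJC28* at 0.69 (adjusted p = 0.316 by limma), *DNAJC14* at -0.20 (adjusted p = 0.113), *DNAJC2* at -0.03 (adjusted p = 0.83), *DNAJC21* at -0.09 (adjusted p = 0.396) and *DNAJC5* at -0.15 (adjusted p = 0.0883).

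Around HSP90, 6 of 20 tested genes fell and 1 rose, 30.0% and 5.0%, against 19.8% lower and 17.8% higher of all genes tested. *PTGES3*, the cochaperone p23 that closes the HSP90 cycle, fell by 0.80, from 11393 ± 962 to 6545 ± 305 (SD, n = 3 each, adjusted p = 2.46e-05 by limma). *HSP90B1*, the HSP90 of the endoplasmic reticulum, fell by 0.56, *UNC45A*, a myosin chaperone, by 0.51 and *FKBP4* by 0.33. *STIP1*, which hands clients from HSP70 to HSP90, fell by 0.27 and *NUDC* by 0.26. *FKBP5*, an immunophilin of steroid receptor complexes, rose by 0.28. *PTGES3* and *HSP90B1* lie on chromosome 12, where the median of 835 genes tested was -0.34, and centred on their neighbours they were at -0.21 (adjusted p = 0.046 by limma) and -0.04 (adjusted p = 0.682). The calls of *UNC45A* and *STIP1* were also lost after centring, at 0.06 (adjusted p = 0.568) and -0.07 (adjusted p = 0.516), and the 50 neighbours of *UNC45A* had a median of -0.57.

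Small heat shock proteins other than *HSPB1* were almost silent. Of 9 genes, only *HSPB6*, with values between 7.40 and 13.7, and *IFT25*, also called HSPB11, with values between 341 and 402, were tested, and neither passed. *CRYAA*, *CRYAB*, *HSPB2*, *HSPB3*, *HSPB7*, *HSPB8* and *HSPB9* did not exceed the estimated value of 3 reads in any library.

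The cytosolic chaperonin CCT, which folds actin and tubulin, and its partner prefoldin gave 6 lower and 2 higher genes of 15 tested. In either direction 53.3% were called, against 37.7% of all genes tested. Over all genes tested 19.8% were lower and 17.8% higher. *CCT5* fell by 0.89, from 13568 ± 815 to 7339 ± 455 (SD, n = 3 each, adjusted p = 9.56e-06 by limma), and *CCT8* rose by 0.89, from 8808 ± 676 to 16278 ± 929 (SD, n = 3 each, adjusted p = 1.2e-05). These are subunits of the same ring. The neighbours of *CCT8* on chromosome 21 had a median of 0.89 and those of *CCT5* a median of -0.56, and the centred values were 0.03 (adjusted p = 0.804) and -0.31 (adjusted p = 0.00658). *PFDN5*, *CCT2* and *TCP1* fell by 0.77, 0.66 and 0.42. Centred, *TCP1* was at -0.49 (adjusted p = 0.000111), and *PFDN5* and *CCT2* did not pass. *PFDN2* and *CCT6A* fell by 0.31 and 0.22, the latter at -0.05 once centred (adjusted p = 0.616), and *PFDN1* rose by 0.37.

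In mitochondria, where HSP60 and HSP10 work, 3 of 13 other chaperone and protease genes fell and 2 rose. These shares, 23.1% lower and 15.4% higher, were near the 19.8% and 17.8% of all genes tested. *HSPA9*, the mitochondrial HSP70 that passes imported proteins to HSP60, was at 11009 ± 597 in parental and 10364 ± 573 (SD, n = 3 each) in resistant cells, a difference of -0.09 (limma adjusted p = 0.324). The protease genes *LONP1* and *CLPP* fell by 0.37 and 0.26 and the nucleotide exchange factor gene *GRPEL2* by 0.27. *CLPX*, the unfoldase partner of CLPP, rose by 0.52 and the protease gene *AFG3L2* by 0.27. Neither rise passed after centring, where *CLPX* was at 0.11 (adjusted p = 0.431 by limma), beside a median of 0.39 for its neighbours on chromosome 15, and *AFG3L2* at 0.25 (adjusted p = 0.0528).

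Of 17 tested genes listed as further targets of HSF1, some of which stand on the lists above, 7 fell and 2 rose, a median of -0.17. That is 41.2% lower and 11.8% higher, against 19.8% and 17.8% of all genes tested. Besides *PTGES3*, *FKBP4* and *STIP1*, those that fell included *UBB* (-0.32), a polyubiquitin gene, *DEDD2* (-0.36) and *ZFAND2A* (-0.78), which encodes a stress-induced proteasome regulator. *SERPINH1*, the collagen chaperone HSP47, rose by 0.42, and *HSPA4L* is the other that rose. Centred, 5 of the 7 falls and both rises passed. *ZFAND2A* lies on chromosome 7, where the median of 826 genes tested was -0.25.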

How the data were processed

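RNA-seq reads of 3 parental and 3 resistant H526 samples were trimmed by the authors with Trimmomatic 0.38, aligned (STAR is among the tools in the submitters' processing notes) and quantified with RSEM 1.3.1 on GRCh38 with Gencode v43, and normalized with DESeq2 1.30.0. The deposited values are this normalized signal, never negative, with replicates kept apart. The 47 second copies of pseudoautosomal genes were removed from 62757 rows, and 62639 of the rest were matched to Gencode v44, from which symbols and positions came. The value of 1 read was read from the commonest step of the low values, from 0.89 to 1.08, but whole reads were not recovered, since the step varied from gene to gene.

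Values were tested as log2(value + 1) in all genes with a mean of at least 10, with limma 3.58.1 (R 4.3.3, lmFit and eBayes with trend), no term besides condition, and p-values adjusted by Benjamini-Hochberg. The steps were tested on simulated data. Promoter letters came from GRCh38. Python 3.11.15, numpy 2.4.6, pandas 2.3.3 and matplotlib 3.10.9 did the rest. Neighbours were the 25 tested genes on each side, fewer at a chromosome end, and local centring subtracted, in each library, the median of a window of 51 genes.

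The 10 genes and all lists were chosen with earlier results of these data known. Named genes were the 10 members, up to 4 genes of each list with the smallest p past the threshold, any gene past it with an absolute log2 fold change over 1, *PLK1*, *HSF2*, *HSP90AB1*, *HSPA4*, *HSPA5*, *HSPA9*, *BAG3*, *HSPE1-MOB4* and *HSPA1L*, listed as overlapping a member, and the 3 nearest in pattern to *HSF1*, *HSPD1* and *HSPE1*. *POU2F3*, *EP300*, *HSPA6*, *DNAJC5*, *DNAJC21*, *STIP1*, *NUDC*, *FKBP5*, *TCP1*, *CCT6A*, *PFDN1*, *PFDN2*, *AFG3L2*, *UBB*, *DEDD2*, *SERPINH1* and the small heat shock genes were named after their values were seen. *HSPB11* was matched as *IFT25*. Processed pseudogenes of the members were counted. The only one with a mean of at least 10, *HSP90AA2P*, and its relatives summed to at most 0.0438% of *HSP90AA1*.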

Additional observations from a re-analysis of the deposited data

How the results depend on the processing

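Under 16 alternatives, 179 of 188 values of single members and ratios kept their direction and, for the members, their side of the threshold. The ratios were judged by direction only, since no permutation p could fall under 0.10. Summing *HSPA1A* and *HSPA1B* could not change the fold changes of the other members. Adding pseudogenes could not change those of members without any. Part of the 179 was therefore fixed in advance. The pseudocount was set to 0.1 or 10, the filter was dropped or raised to a mean of 50, and the rest were upper-quartile scaling, quantile normalization, limma without the trend, local median centring, *HSPA1A* and *HSPA1B* summed, pseudogenes added and each library left out. The falls of *HSPA1A*, *HSPA1B*, *DNAJB1*, *HSPD1* and *HSPE1* passed the threshold in all 16, with a highest adjusted p by limma of 0.0451 (*HSPA1B*, local centring). The number of members higher, 1 in the report, was 0 without the trend and 0 under local centring, where the call of *HSP90AA1* was lost. Other chaperone genes called lower went from 30 to 19 under local centring, and all tested genes called lower from 3244 to 2611. The cause was not tested beyond that subtraction. *HSF1* turned to 0.045 with upper-quartile scaling, 0.033 with quantile normalization and 0.085 under local centring, and lay between -0.042 and 0.018 with each library left out. *HSPB1* turned to 0.013 under local centring. Upper-quartile scaling moved the median of all genes by under 0.1, to 0.05. Count tests with edgeR and DESeq2 were not run, since whole reads were not recovered. No paired analysis was possible because the labels number the groups 1 to 3 and 7 to 9, and no source used here says which parental and resistant samples share an extraction time. Low genes such as *HSPB1*, *HSPA6* and the small heat shock genes are limited by depth.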
